A study of Mus musculus with 16 samples.

Results

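The genes described here are factors of ribosome biogenesis, the assembly of ribosomes in the nucleolus, followed over 4 subsets of mouse regulatory T cells (Treg). The set holds 45 genes fixed by name. A gene was measured where the array annotation gives it a probe set under its symbol alone, and where it had several the brightest stood for it. This left 43 genes of the 19938 on the arrays, since Noc2l and Npm3 have no such probe set. No expression value entered the choice of the genes, but it was made with earlier results of these data known. No gene was removed by a filter on low values.

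Treg were sorted from the pooled lymph nodes of female wild type C57BL/6 mice aged 8 to 12 weeks, by surface CD103, an integrin chain encoded by Itgae, and by ICOS, a costimulatory receptor. The 4 subsets were CD103pos ICOSpos, CD103neg ICOSpos, CD103pos ICOSneg and CD103neg ICOSneg, and each was measured activated and fresh, with 2 arrays per group in 8 groups and 16 arrays in all. Activated cells had spent 3 days in a suppression assay, in which 200000 Treg of 1 subset were kept with 1000000 naive CD4 T cells of the Ly5.1 congenic strain, 2000000 irradiated splenocytes of Rag2-/- mice and 0.5 ug/ml soluble anti-CD3. They were then sorted again as CD4pos CD25pos cells lacking Ly5.1, so the activated samples differ from the fresh ones by the culture, the other cells in it and the second sort together. Fresh cells went to RNA directly after the sort. The labels call the arrays of a group biological replicates, and the series describes 2 independent experiments. The p-values below measure the spread between these 2 arrays per group, pooled over the 8 groups.

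Ribosome biogenesis starts with RNA polymerase I, which transcribes the ribosomal RNA precursor in the nucleolus. Small nucleolar ribonucleoproteins modify the precursor, those of the box C/D class by ribose methylation and those of the box H/ACA class by pseudouridylation. The small subunit processome forms around the part of the precursor that becomes the small subunit, a separate series of factors builds the large subunit, and the last steps take place on the way to the cytoplasm. Resting lymphocytes make few ribosomes, and T cells that are stimulated through their receptor enlarge the nucleolus before they divide. Many genes of the pathway are known targets of the transcription factor Myc, whose preferred binding sequence is the E-box CACGTG.

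Promoters are shown for 4 of the genes to give the sequence context of members that come up below, 2 with the E-box and 2 without it. They are Polr1b and Mrto4, which had the largest differences by ICOS and by activation, Nop2, whose ICOS difference in activated cells was among the 3 largest, and Pes1, of the PeBoW complex. Each runs from 250 bases before to 20 bases after the RefSeq start of the gene in GRCm38.p6, 5′ to 3′ on the gene's strand, at chr2:129100746-129101015 on the plus strand for Polr1b, chr4:139352557-139352826 on the minus strand for Mrto4, chr6:125131633-125131902 on the plus strand for Nop2 and chr11:3963725-3963994 on the plus strand for Pes1. Capitals mark CACGTG, which reads the same on both strands.
Polr1b: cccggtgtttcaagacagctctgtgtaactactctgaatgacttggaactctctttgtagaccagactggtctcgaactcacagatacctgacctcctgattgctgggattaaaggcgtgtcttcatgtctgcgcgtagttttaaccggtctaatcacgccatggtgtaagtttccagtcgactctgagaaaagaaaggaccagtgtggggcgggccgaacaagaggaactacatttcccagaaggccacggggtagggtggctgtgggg
Mrto4: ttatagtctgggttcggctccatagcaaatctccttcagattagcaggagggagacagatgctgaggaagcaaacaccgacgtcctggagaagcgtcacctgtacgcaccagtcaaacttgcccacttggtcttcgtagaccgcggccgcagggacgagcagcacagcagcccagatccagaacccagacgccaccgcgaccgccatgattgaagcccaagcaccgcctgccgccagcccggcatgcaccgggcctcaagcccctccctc
Nop2: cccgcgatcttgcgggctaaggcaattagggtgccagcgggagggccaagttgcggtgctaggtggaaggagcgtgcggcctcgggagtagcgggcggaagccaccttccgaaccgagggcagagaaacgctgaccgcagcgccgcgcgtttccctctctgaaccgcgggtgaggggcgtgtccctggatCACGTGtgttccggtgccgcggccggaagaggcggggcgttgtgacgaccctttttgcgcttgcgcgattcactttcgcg
Pes1: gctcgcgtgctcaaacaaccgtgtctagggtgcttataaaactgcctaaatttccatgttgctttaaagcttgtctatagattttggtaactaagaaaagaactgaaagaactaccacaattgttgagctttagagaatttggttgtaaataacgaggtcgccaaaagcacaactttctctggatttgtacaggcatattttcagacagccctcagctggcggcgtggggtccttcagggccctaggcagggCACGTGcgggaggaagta
The motif starts at position -60 from the start in Nop2 and at 3 in Pes1. RefSeq windows of 300 bases, which reach 50 bases past the start, were found for 38 of the 43 genes, and those of 7 genes held CACGTG (18.4%), namely Imp4, Nop2, Pes1, Wdr43, Tsr1, Mettl1 and Utp20. Among all genes on the arrays with a window it was 1483 of 15614 (9.498%). Genes can have several windows, and all genes have more of them per gene than the members. Counted by window it was 7 of 41 (17.1%) for the members and 2349 of 32851 (7.15%) for all genes. These shares describe letters in a window and were not tested. Fbl, Rrs1, Bop1, Npm1 and Rrp12 have no window.

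The deposited values are log2 intensities, in which 1 unit is a 2-fold difference, with array medians between 6.26 and 6.48. Arrays have no counting depth, so their number limits the precision. A level is compared only between arrays for the same gene, never between genes. In bulk samples, fewer cells that use a gene and less RNA of it per cell cannot be told apart. The array labelled activated CD103neg ICOSpos replicate 2 stands apart from all others. Foxp3, the lineage transcription factor of Treg, was 8.53 on it, against 12.64 on its partner and 11.69 to 12.84 on all arrays but this one, and all 10 Treg markers read were lower on it than on the partner (median difference -1.96). Itgae was 6.30 on it and 10.001 on its partner, which thus lay above both activated CD103pos ICOSneg arrays (9.94 and 9.87). Icos, the gene of ICOS, was low on the array that stands apart as well. The group names below are those of the labels, and this array is shown apart.

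The ribosome biogenesis genes themselves differed little between that array and its partner. Of the 43 genes 25 were higher and 18 lower on the array set apart, with a median difference of 0.06 and a range of -0.52 to 0.48. Cytosolic ribosomal protein genes were higher on it in 52 of 55 cases (median 0.34). Larger shifts of the biogenesis genes were found in 2 other activated pairs. On replicate 2 of activated CD103pos ICOSpos 40 of 43 genes were lower than on replicate 1 (median -0.50), and on replicate 2 of activated CD103neg ICOSneg likewise 40 of 43 (median -0.35). In the 4 fresh groups replicate 2 was the higher array for 27 to 31 of the genes. The median standard deviation between replicates was 0.19 over genes and groups, and the largest 0.85. The lowest of the 43 genes' values was 6.71 and the highest 11.86, and the span of a gene over the 16 arrays lay between 0.95 (Polr1c) and 2.03 (Nop58), with a median of 1.30.

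The genes moved largely together across the arrays. The median over the 43 genes, each taken relative to its own mean over the 16 arrays, was 0.06 and -0.41 on the activated CD103pos ICOSpos arrays, and -0.42 and, on the array set apart, -0.36 on the activated CD103neg ICOSpos arrays. It was 0.56 and 0.41 on the activated CD103pos ICOSneg arrays and 0.55 and 0.20 on the activated CD103neg ICOSneg arrays. All 4 activated ICOSneg arrays thus lay above all 4 activated ICOSpos arrays. In fresh cells the same median was -0.48 and -0.29 in CD103pos ICOSpos, 0.21 and 0.33 in CD103neg ICOSpos, -0.24 and 0.02 in CD103pos ICOSneg and -0.01 and 0.07 in CD103neg ICOSneg cells. Both fresh CD103neg ICOSpos arrays therefore lay above all other fresh arrays. Among activated cells the CD103neg ICOSpos mean was the lowest, but CD103pos ICOSpos replicate 2 lay between the arrays of that subset.

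**Figure D1:**
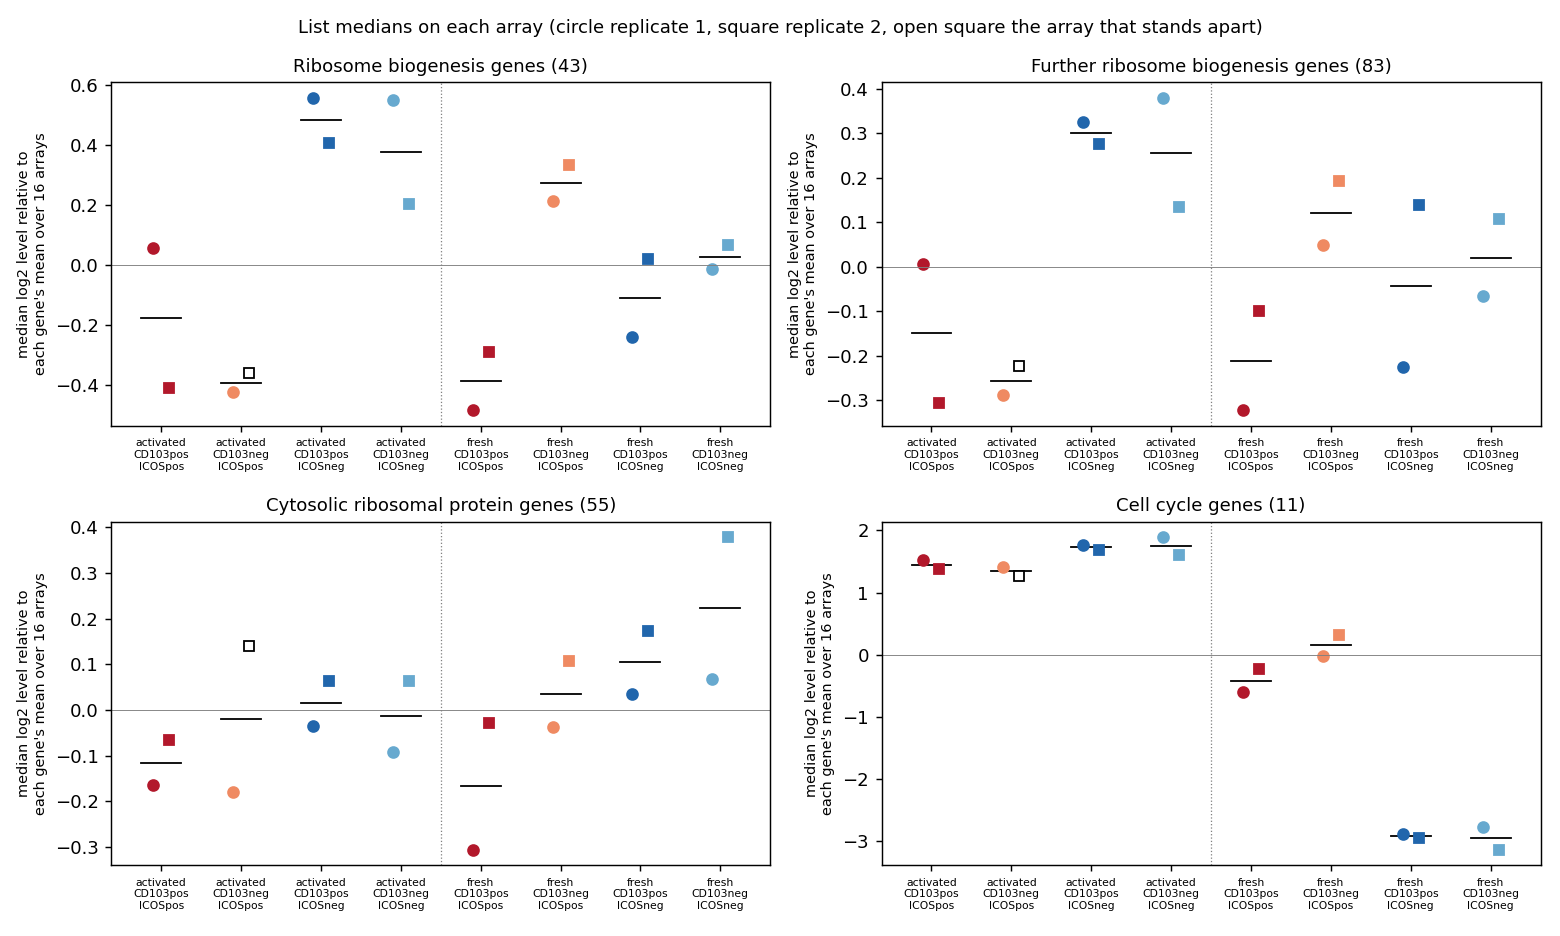
Median log2 level of 4 gene lists on each array, relative to each gene's mean over the 16 arrays, with the groups along the horizontal axis; circles are replicate 1, squares replicate 2, the open square the array set apart and lines the group means. The biogenesis genes lay between -0.42 and 0.06 on activated ICOSpos arrays and between 0.20 and 0.56 on activated ICOSneg arrays, the further biogenesis genes showed the same split, and cell cycle genes were above 1 on every activated array.

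Gene by gene the order of the subsets was much the same. Among activated cells 38 of the 43 genes had their highest group mean in CD103pos ICOSneg and the other 5 in CD103neg ICOSneg cells, while 35 had their lowest in CD103neg ICOSpos and 8 in CD103pos ICOSpos cells. Without the array set apart 39 and 4 genes were lowest in these subsets. Of all 19938 genes 28.5% were highest in activated CD103pos ICOSneg cells and 30.6% lowest in activated CD103neg ICOSpos cells. Among fresh cells 38 genes were highest in CD103neg ICOSpos and 38 lowest in CD103pos ICOSpos cells, against 20.7% and 31.5% of all genes. These are orders of group means. Among activated cells the arrays place both ICOSneg subsets above both ICOSpos subsets but do not order the subsets within either pair, since the array medians of the 2 ICOSpos subsets overlap and so do those of the 2 ICOSneg subsets. CD103pos ICOSpos replicate 2 was the lowest of all 16 arrays for 12 genes, against 4 and 5 genes for the CD103neg ICOSpos arrays. Among fresh cells the CD103pos ICOSpos arrays (-0.48 and -0.29) lay below all other fresh arrays, and those of the ICOSneg subsets overlap.

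**Figure D2:**
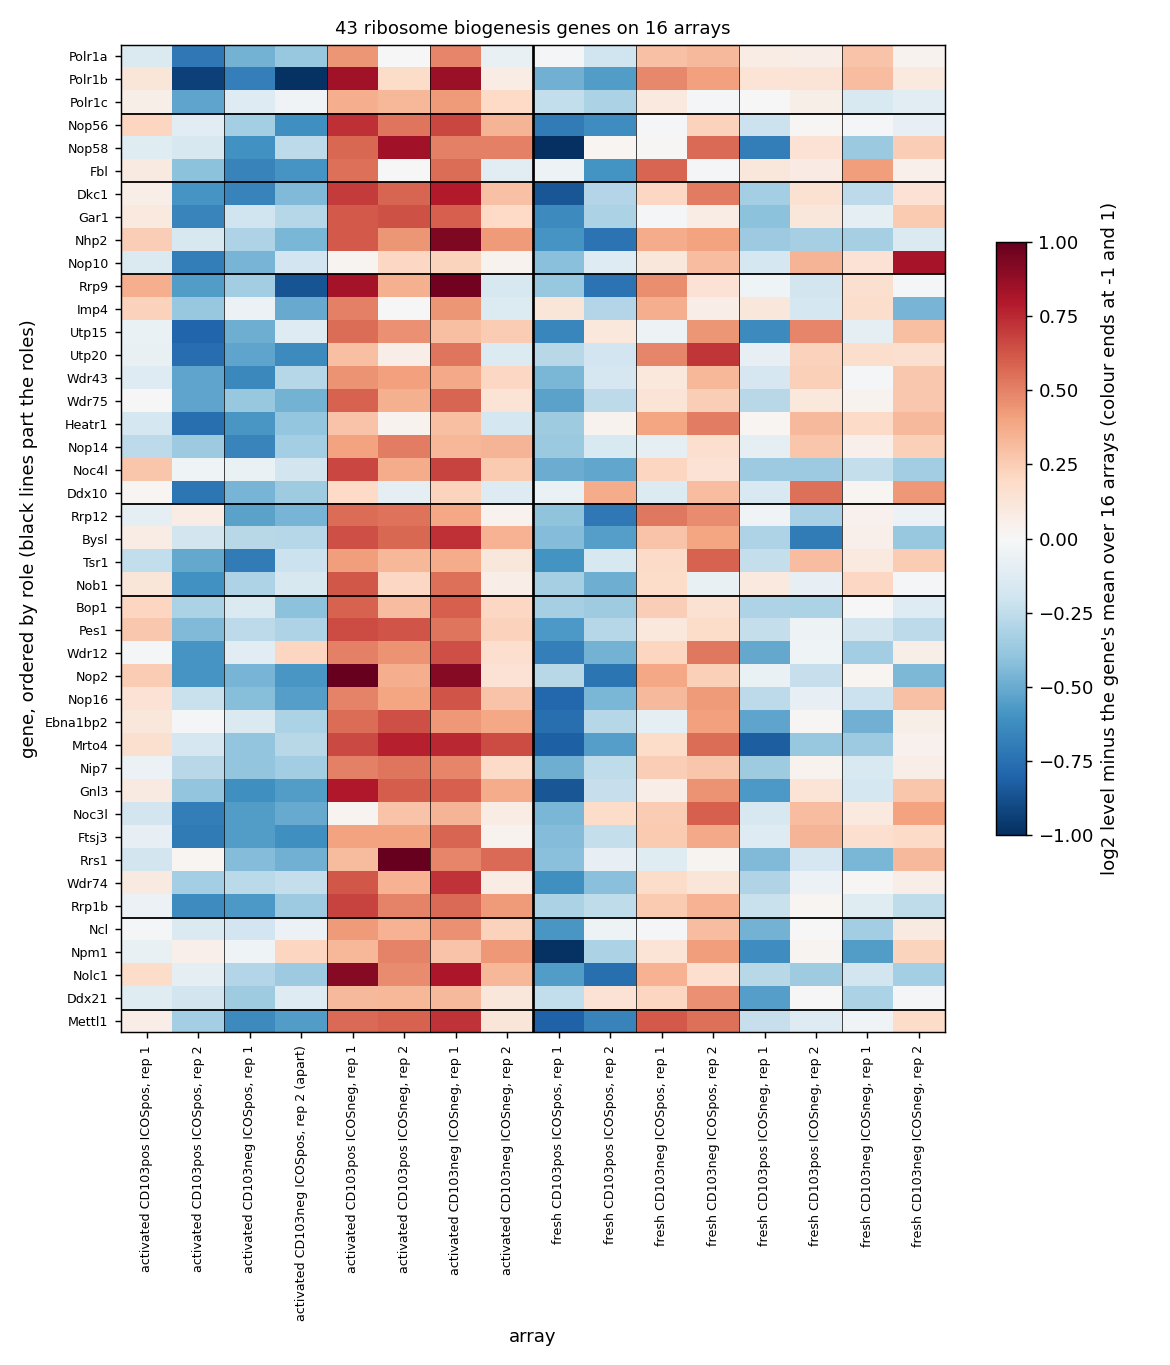
Log2 level of the 43 genes (rows, ordered by role) on the 16 arrays (columns), as colour, with the 16-array mean of the gene at white; the colour scale ends at -1 and 1. Red prevails on the 4 activated ICOSneg arrays and the fresh CD103neg ICOSpos arrays, and blue on the activated ICOSpos arrays other than CD103pos ICOSpos replicate 1, and the fresh CD103pos ICOSpos arrays.

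More of the genes passed by ICOS in activated cells than in any other comparison. ICOSpos minus ICOSneg, averaged over CD103, was negative for all 43 genes, with a median log2 difference of -0.72 against -0.00056 over all genes, and 30 of the 43 were lower at an adjusted p under 0.05 in limma (40 at an unadjusted p under 0.05). None was higher by either measure. Of all genes tested 5% were called lower in this comparison, and 3923 of 19938 had an unadjusted p under 0.05 in limma in either direction. The median was -0.76 in the replicate 1 arrays and -0.70 in the replicate 2 arrays, and -0.66 between the CD103pos subsets and -0.74 between the CD103neg subsets, or -0.75 without the array set apart. In 29 genes all 4 activated ICOSpos arrays lay below all 4 activated ICOSneg arrays (8.27% of all genes). The count of genes passing was 22 without the array set apart. It was 13 without activated CD103neg ICOSneg replicate 1, 13 without activated CD103pos ICOSpos replicate 2 and 14 without activated CD103pos ICOSneg replicate 1, while the median stayed between -0.81 and -0.62 under every alternative run.

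RNA polymerase I genes were lower in all 3 measured cases. Polr1b, which encodes one of the large core subunits, had log2 levels in activated cells of 9.56 and 8.51 on the CD103pos ICOSpos arrays, 8.76 and, on the array set apart, 8.45 on the CD103neg ICOSpos arrays, 10.28 and 9.62 on the CD103pos ICOSneg arrays and 10.31 and 9.51 on the CD103neg ICOSneg arrays. Its fresh levels were 8.96 and 8.88 in CD103pos ICOSpos, 9.92 and 9.85 in CD103neg ICOSpos, 9.58 and 9.58 in CD103pos ICOSneg and 9.75 and 9.54 in CD103neg ICOSneg cells. The activated ICOSpos arrays ranged from 8.45 to 9.56 and the activated ICOSneg arrays from 9.51 to 10.31, so the groups overlapped by 1 array on each side. The ICOS difference in activated cells was -1.11 (SE 0.24, adjusted p = 0.0206 in limma), a 2.16-fold lower level and the largest of the 43.

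Polr1a, the catalytic subunit, had activated levels of 9.09 and 8.52 on the CD103pos ICOSpos arrays, 8.76 and, on the array set apart, 8.85 on the CD103neg ICOSpos arrays, 9.68 and 9.23 on the CD103pos ICOSneg arrays and 9.72 and 9.16 on the CD103neg ICOSneg arrays, and fresh levels of 9.21 and 9.03 in CD103pos ICOSpos, 9.53 and 9.55 in CD103neg ICOSpos, 9.30 and 9.30 in CD103pos ICOSneg and 9.52 and 9.27 in CD103neg ICOSneg cells. Every activated ICOSpos array was below every activated ICOSneg array, and the ICOS difference was -0.64 (SE 0.16, adjusted p = 0.0345 in limma). For Polr1c, a subunit shared with RNA polymerase III, the activated levels were 9.32 and 8.74 on the CD103pos ICOSpos arrays, 9.13 and, on the array set apart, 9.23 on the CD103neg ICOSpos arrays, 9.63 and 9.60 on the CD103pos ICOSneg arrays and 9.69 and 9.47 on the CD103neg ICOSneg arrays. In fresh cells it had 9.02 and 8.94 in CD103pos ICOSpos, 9.36 and 9.25 in CD103neg ICOSpos, 9.26 and 9.32 in CD103pos ICOSneg and 9.11 and 9.15 in CD103neg ICOSneg cells. This gene varied least over the arrays, and its ICOS difference in activated cells was -0.49 (SE 0.11, adjusted p = 0.0262 in limma).

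Among the box C/D proteins, Nop56, a scaffold of the particle, passed. Its activated levels were 11.34 and 11.02 on the CD103pos ICOSpos arrays, 10.79 and, on the array set apart, 10.51 on the CD103neg ICOSpos arrays, 11.86 and 11.66 on the CD103pos ICOSneg arrays and 11.79 and 11.47 on the CD103neg ICOSneg arrays. Fresh levels were 10.43 and 10.51 in CD103pos ICOSpos, 11.12 and 11.36 in CD103neg ICOSpos, 10.91 and 11.14 in CD103pos ICOSneg and 11.12 and 11.04 in CD103neg ICOSneg cells. The groups of activated ICOSpos and ICOSneg arrays did not overlap, and the difference was -0.78 (SE 0.11, adjusted p = 0.0055 in limma). Its paralogue Nop58 differed by -0.89 without passing (adjusted p = 0.075 in limma). Its fresh CD103pos ICOSpos arrays had 7.78 and 8.99, the largest replicate difference among the 43 genes. Fbl, the methyltransferase fibrillarin, had activated levels of 9.67 and 9.17 on the CD103pos ICOSpos arrays, 8.91 and, on the array set apart, 8.99 on the CD103neg ICOSpos arrays, 10.13 and 9.58 on the CD103pos ICOSneg arrays and 10.14 and 9.47 on the CD103neg ICOSneg arrays. In fresh cells it stood at 9.53 and 8.99 in CD103pos ICOSpos, 10.16 and 9.57 in CD103neg ICOSpos, 9.69 and 9.66 in CD103pos ICOSneg and 9.99 and 9.63 in CD103neg ICOSneg cells. Its replicates lay far apart in several groups of either state, and its ICOS difference of -0.64 in activated cells did not pass.

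Of the box H/ACA proteins Dkc1, Nhp2 and Gar1 were lower in activated ICOSpos cells. Dkc1 encodes dyskerin, the pseudouridine synthase, which is also part of telomerase. Its activated levels were 8.92 and 8.26 on the CD103pos ICOSpos arrays, 8.18 and, on the array set apart, 8.41 on the CD103neg ICOSpos arrays, 9.55 and 9.43 on the CD103pos ICOSneg arrays and 9.64 and 9.14 on the CD103neg ICOSneg arrays. Its fresh levels were 8.00 and 8.56 in CD103pos ICOSpos, 9.06 and 9.37 in CD103neg ICOSpos, 8.51 and 9.01 in CD103pos ICOSneg and 8.59 and 8.99 in CD103neg ICOSneg cells. The activated groups did not overlap, and the ICOS difference of -0.998 (SE 0.20, adjusted p = 0.0158 in limma) is a 1.997-fold lower level. Nhp2, a core protein of the particle, stood at 10.07 and 9.66 on the CD103pos ICOSpos arrays, 9.52 and, on the array set apart, 9.37 on the CD103neg ICOSpos arrays, 10.44 and 10.27 on the CD103pos ICOSneg arrays and 10.76 and 10.25 on the CD103neg ICOSneg arrays in activated cells. Its fresh arrays had 9.23 and 9.09 in CD103pos ICOSpos, 10.20 and 10.23 in CD103neg ICOSpos, 9.46 and 9.49 in CD103pos ICOSneg and 9.49 and 9.68 in CD103neg ICOSneg cells. The ICOS difference in activated cells was -0.77 (SE 0.12, adjusted p = 0.00646 in limma), with no overlap. Gar1 differed by -0.77 as well (adjusted p = 0.0273 in limma). Nop10, the smallest protein of the particle, differed by -0.50 without passing. Its activated levels were 9.96 and 9.41 on the CD103pos ICOSpos arrays, 9.63 and, on the array set apart, 9.91 on the CD103neg ICOSpos arrays, 10.13 and 10.31 on the CD103pos ICOSneg arrays and 10.32 and 10.14 on the CD103neg ICOSneg arrays. Its fresh levels were 9.68 and 9.97 in CD103pos ICOSpos, 10.22 and 10.41 in CD103neg ICOSpos, 9.93 and 10.45 in CD103pos ICOSneg and 10.25 and 10.93 in CD103neg ICOSneg cells, and the highest of all was fresh.

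In the small subunit processome 6 of 10 genes were lower. Nop14 differed by -0.80, Wdr75 and Wdr43 by -0.76 each, Utp20 by -0.69, Heatr1 by -0.59 and Noc4l by -0.50. Utp15, Wdr43, Wdr75 and Heatr1 are the counterparts of yeast proteins that join the precursor early, and Utp15 differed by -0.76 without passing. Noc4l is the counterpart of yeast Noc4, which binds Nop14. Its activated levels were 9.64 and 9.33 on the CD103pos ICOSpos arrays, 9.30 and, on the array set apart, 9.19 on the CD103neg ICOSpos arrays, 10.03 and 9.74 on the CD103pos ICOSneg arrays and 10.05 and 9.63 on the CD103neg ICOSneg arrays. Its fresh levels were 8.87 and 8.85 in CD103pos ICOSpos, 9.58 and 9.51 in CD103neg ICOSpos, 9.01 and 9.005 in CD103pos ICOSneg and 9.13 and 9.02 in CD103neg ICOSneg cells. Activated CD103pos ICOSpos replicate 1 lay just above the lowest ICOSneg array, and the ICOS difference had an SE of 0.11 (adjusted p = 0.0217 in limma). Rrp9 (-0.85), Ddx10 (-0.43) and Imp4 (-0.38) did not pass. Heatr1, the counterpart of yeast Utp10, had 9.30 and 8.72 on the CD103pos ICOSpos arrays, 8.89 and, on the array set apart, 9.09 on the CD103neg ICOSpos arrays, 9.76 and 9.51 on the CD103pos ICOSneg arrays and 9.77 and 9.30 on the CD103neg ICOSneg arrays in activated cells. In fresh cells it had 9.12 and 9.51 in CD103pos ICOSpos, 9.87 and 9.98 in CD103neg ICOSpos, 9.49 and 9.80 in CD103pos ICOSneg and 9.67 and 9.80 in CD103neg ICOSneg cells. Its ICOS difference in activated cells had an SE of 0.15 (adjusted p = 0.0466 in limma).

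Of the later small subunit factors Bysl, Tsr1 and Rrp12 were lower and Nob1, the nuclease that trims the end of the small subunit RNA, differed by -0.60 without passing. Bysl, the counterpart of yeast Enp1, had activated levels of 7.97 and 7.71 on the CD103pos ICOSpos arrays, 7.62 and, on the array set apart, 7.61 on the CD103neg ICOSpos arrays, 8.54 and 8.47 on the CD103pos ICOSneg arrays and 8.62 and 8.25 on the CD103neg ICOSneg arrays. Fresh levels of this gene were 7.46 and 7.34 in CD103pos ICOSpos, 8.18 and 8.29 in CD103neg ICOSpos, 7.59 and 7.197 in CD103pos ICOSneg and 7.95 and 7.52 in CD103neg ICOSneg cells. The activated groups did not overlap, with a difference of -0.74 (SE 0.13, adjusted p = 0.00849 in limma). Tsr1, a GTPase-like assembly factor, had 8.69 and 8.42 on the CD103pos ICOSpos arrays, 8.24 and, on the array set apart, 8.72 on the CD103neg ICOSpos arrays, 9.35 and 9.26 on the CD103pos ICOSneg arrays and 9.30 and 9.05 on the CD103neg ICOSneg arrays in activated cells. On the fresh arrays it had 8.34 and 8.77 in CD103pos ICOSpos, 9.13 and 9.53 in CD103neg ICOSpos, 8.70 and 9.24 in CD103pos ICOSneg and 9.03 and 9.19 in CD103neg ICOSneg cells. Its ICOS difference in activated cells was -0.73 (SE 0.16, adjusted p = 0.0256 in limma). Rrp12, whose yeast counterpart takes part in the export of ribosomal subunits, had activated levels of 8.01 and 8.17 on the CD103pos ICOSpos arrays, 7.57 and, on the array set apart, 7.64 on the CD103neg ICOSpos arrays, 8.66 and 8.64 on the CD103pos ICOSneg arrays and 8.48 and 8.13 on the CD103neg ICOSneg arrays. In fresh cells its levels were 7.69 and 7.39 in CD103pos ICOSpos, 8.63 and 8.57 in CD103neg ICOSpos, 8.06 and 7.77 in CD103pos ICOSneg and 8.14 and 8.04 in CD103neg ICOSneg cells. On 1 activated ICOSpos array, CD103pos ICOSpos replicate 2, it lay above 1 ICOSneg array, and the difference was -0.63 (SE 0.10, adjusted p = 0.00722 in limma).

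Large subunit factors made up the largest role group, and 12 of 14 were lower. Nop2, an RNA methyltransferase, had activated levels of 9.78 and 8.93 on the CD103pos ICOSpos arrays, 9.06 and, on the array set apart, 8.94 on the CD103neg ICOSpos arrays, 10.58 and 9.89 on the CD103pos ICOSneg arrays and 10.43 and 9.67 on the CD103neg ICOSneg arrays. Its fresh levels were 9.25 and 8.79 in CD103pos ICOSpos, 9.91 and 9.76 in CD103neg ICOSpos, 9.46 and 9.29 in CD103pos ICOSneg and 9.54 and 9.07 in CD103neg ICOSneg cells. Activated CD103pos ICOSpos replicate 1 lay above 1 ICOSneg array, and the difference was -0.97 (SE 0.23, adjusted p = 0.0337 in limma), a 1.95-fold lower level. The nucleolar GTPase Gnl3, known as nucleostemin, differed by -0.96, and Rrp1b by -0.95 (SE 0.12), the smallest adjusted p of the 43 genes (0.00344 in limma). Mrto4, the counterpart of yeast Mrt4, which holds the place of a ribosomal stalk protein during assembly, had activated levels of 7.77 and 7.44 on the CD103pos ICOSpos arrays, 7.22 and, on the array set apart, 7.34 on the CD103neg ICOSpos arrays, 8.27 and 8.39 on the CD103pos ICOSneg arrays and 8.37 and 8.26 on the CD103neg ICOSneg arrays. In fresh cells the levels were 6.80 and 7.06 in CD103pos ICOSpos, 7.80 and 8.17 in CD103neg ICOSpos, 6.79 and 7.23 in CD103pos ICOSneg and 7.25 and 7.66 in CD103neg ICOSneg cells. The activated ICOSpos and ICOSneg arrays were separate, and the ICOS difference was -0.88 (SE 0.14, adjusted p = 0.00638 in limma). Its other probe set differed by -0.79.

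Noc3l, the counterpart of yeast Noc3, had 8.42 and 7.91 on the CD103pos ICOSpos arrays, 8.04 and, on the array set apart, 8.09 on the CD103neg ICOSpos arrays, 8.63 and 8.89 on the CD103pos ICOSneg arrays and 8.94 and 8.68 on the CD103neg ICOSneg arrays in activated cells. Its fresh arrays stood at 8.14 and 8.79 in CD103pos ICOSpos, 8.85 and 9.20 in CD103neg ICOSpos, 8.44 and 8.91 in CD103pos ICOSneg and 8.70 and 9.004 in CD103neg ICOSneg cells. The ICOS difference in activated cells was -0.67 (SE 0.18, adjusted p = 0.0466 in limma). Of the PeBoW complex, which is needed for the maturation of large subunit RNA, Pes1 (-0.70) and Bop1 (-0.59) were lower, and Wdr12 (-0.57) did not pass. The remaining large subunit genes that were lower were Rrs1 (-0.88), the methyltransferase Ftsj3 (-0.85), Nop16 (-0.72), Nip7 (-0.70) and Wdr74 (-0.63), and Ebna1bp2 differed by -0.60 without passing.

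Of the nucleolar phosphoproteins, chaperones and helicase 1 of 4 passed. Nolc1, a phosphoprotein that accompanies small nucleolar ribonucleoproteins, had activated levels of 9.60 and 9.32 on the CD103pos ICOSpos arrays, 9.13 and, on the array set apart, 9.06 on the CD103neg ICOSpos arrays, 10.33 and 9.89 on the CD103pos ICOSneg arrays and 10.23 and 9.75 on the CD103neg ICOSneg arrays. Its fresh levels were 8.87 and 8.67 in CD103pos ICOSpos, 9.77 and 9.59 in CD103neg ICOSpos, 9.15 and 9.07 in CD103pos ICOSneg and 9.23 and 9.08 in CD103neg ICOSneg cells. The activated ICOSpos arrays lay below the ICOSneg arrays without overlap, by -0.77 (SE 0.13, adjusted p = 0.0079 in limma). The helicase Ddx21 had 10.23 and 10.17 on the CD103pos ICOSpos arrays, 10.003 and, on the array set apart, 10.23 on the CD103neg ICOSpos arrays, 10.68 and 10.68 on the CD103pos ICOSneg arrays and 10.68 and 10.47 on the CD103neg ICOSneg arrays in activated cells. In fresh cells it had 10.11 and 10.503 in CD103pos ICOSpos, 10.57 and 10.81 in CD103neg ICOSpos, 9.81 and 10.35 in CD103pos ICOSneg and 10.04 and 10.34 in CD103neg ICOSneg cells. Its ICOS difference in activated cells was -0.47, as was that of nucleolin, Ncl, and that of the chaperone Npm1 was -0.35, the smallest of the 43. These 3 did not pass.

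Mettl1 methylates transfer RNA and is a gene of the translation machinery rather than of ribosome assembly. Its activated levels were 7.81 and 7.40 on the CD103pos ICOSpos arrays, 7.10 and, on the array set apart, 7.18 on the CD103neg ICOSpos arrays, 8.30 and 8.33 on the CD103pos ICOSneg arrays and 8.46 and 7.86 on the CD103neg ICOSneg arrays. In fresh cells it had 6.93 and 7.07 in CD103pos ICOSpos, 8.35 and 8.29 in CD103neg ICOSpos, 7.504 and 7.61 in CD103pos ICOSneg and 7.70 and 7.92 in CD103neg ICOSneg cells. All 4 activated ICOSpos arrays lay below all 4 ICOSneg arrays, with a difference of -0.87 (SE 0.13, adjusted p = 0.00591 in limma).

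**Figure D3:**
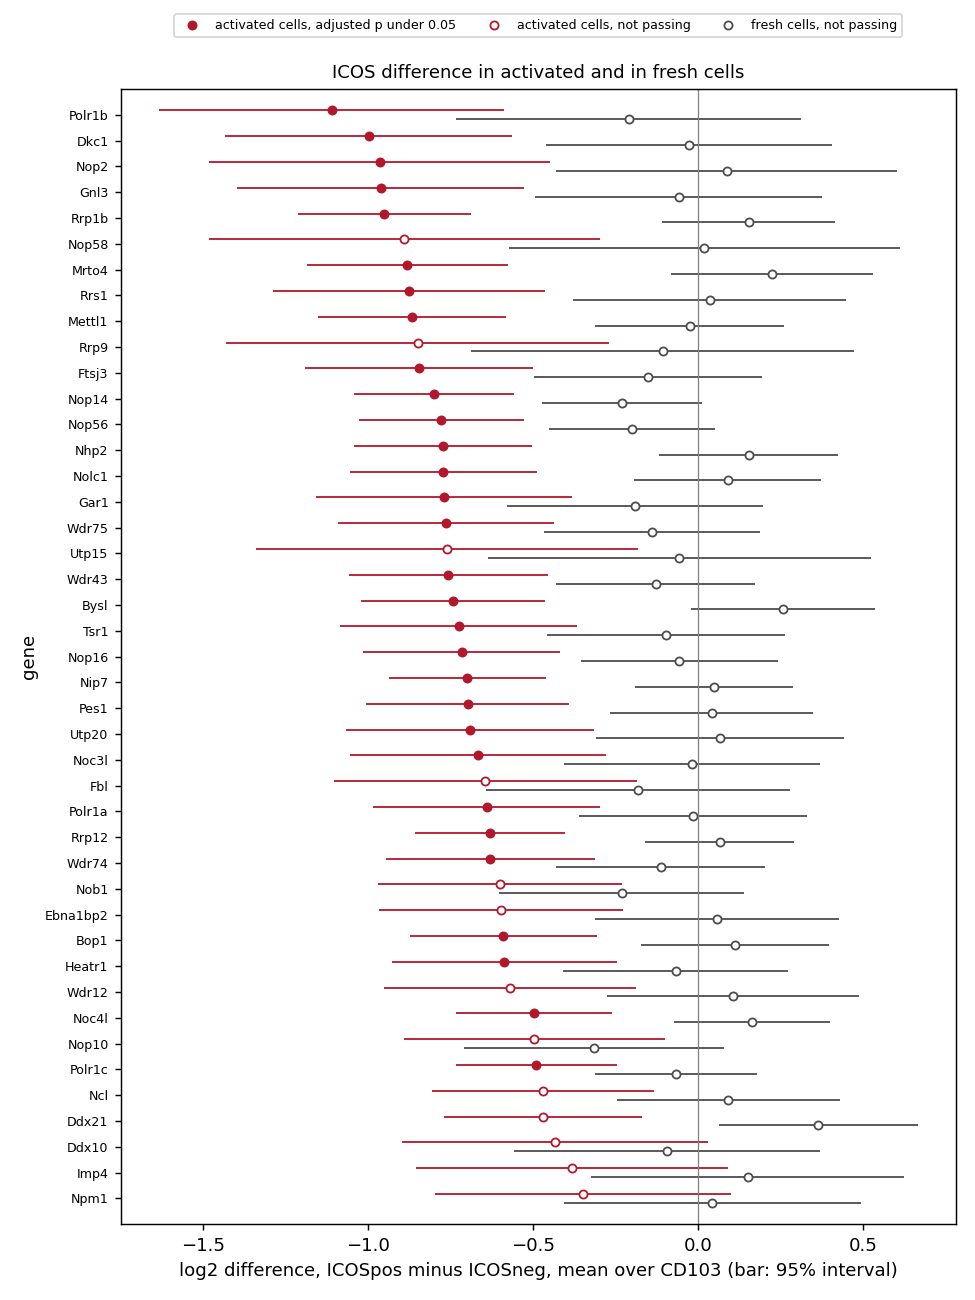
ICOSpos minus ICOSneg log2 difference of each of the 43 genes, averaged over CD103, with its 95% interval from limma; activated cells are above fresh cells for each gene, and filled points passed. In activated cells all 43 points lie below 0, from -1.11 for Polr1b to -0.35 for Npm1, while in fresh cells they lie around 0 and none passed.

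Markers read beside these genes also differed by ICOS in activated cells. The differences of the 11 measured cell cycle genes were all negative, with a median of -0.28, and 1 of them, Cdk1, passed (-0.33). Their array medians were 1.27 to 1.52 on the activated ICOSpos and 1.60 to 1.89 on the activated ICOSneg arrays. Of 8 genes that mark activated conventional CD4 T cells 6 had positive differences and 2 passed, with a median difference of 0.73 and array medians of -0.14 to 0.65 on ICOSpos and -0.56 to 0.08 on ICOSneg arrays. Of 10 Treg markers 7 had negative differences and 1 passed (median -0.19). The negative median and the count of negative signs rest on the array set apart. The median was 0.12 in the replicate 1 arrays, with 7 positive, and -0.42 in the replicate 2 arrays, which hold it. None passed in limma of the 3 T cell, 4 naive CD4 T cell, 5 CD8 and NK, 4 B cell and 8 myeloid and dendritic markers, and 1 T cell and 1 myeloid marker had an unadjusted p under 0.05. Their part in the ICOS difference of the biogenesis genes was not tested.

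Activated and fresh cells differed in opposite directions in the subsets. In CD103pos ICOSneg cells 18 of the 43 genes were higher in activated than in fresh cells (27 at an unadjusted p under 0.05 in limma), with a median difference of 0.68, where 10.2% of all genes were called higher. The median there was 0.87 in the replicate 1 arrays and 0.46 in the replicate 2 arrays. In CD103neg ICOSneg cells 7 were higher (15 unadjusted), with a median of 0.38 (0.68 and 0.10 by replicate) and 8.65% of all genes called. In CD103pos ICOSpos cells 6 were higher (11 unadjusted), with a median of 0.20 and 5.36% of all genes called, but the direction turned between the replicates, with a median of 0.54 in replicate 1 and of -0.12 in replicate 2, where 26 of the 43 differences were negative. In CD103neg ICOSpos cells the difference was negative for all 43 genes, with a median of -0.62 (-0.58 and, with the array set apart, -0.68 by replicate), and 6 were lower at the threshold (27 unadjusted), where 1.06% of all genes were called lower. No member passed in the direction opposite to these in any subset, and at an unadjusted p under 0.05 in limma there was none either. An unadjusted limma p under 0.05 in either direction was found for 5841 of all 19938 genes in CD103pos ICOSneg cells. It was found for 5452 in CD103neg ICOSneg, 2604 in CD103neg ICOSpos and 5356 in CD103pos ICOSpos cells. The 11 of 43 members in CD103pos ICOSpos cells lie close to that last share, though none of them was lower.

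The activation differences of single genes showed the same split. Mrto4 was higher in activated cells by 1.32 in CD103pos ICOSneg (SE 0.20, adjusted p = 0.000674 in limma), a 2.50-fold higher level, by 0.86 in CD103neg ICOSneg and by 0.68 in CD103pos ICOSpos cells. Nhp2, Nolc1, Noc4l and Nop56 were also higher in these 3 subsets. In CD103pos ICOSneg cells Nhp2 rose by 0.87, Nolc1 by 1.002, Noc4l by 0.88 and Nop56 by 0.74. The further rises there were Bysl (1.11), Rrs1 (0.99), Gnl3 (0.92), Ebna1bp2 (0.86), Pes1 (0.78), Bop1 (0.76), Mettl1 (0.76), Rrp12 (0.73), Rrp1b (0.69), Nip7 (0.68), Wdr74 (0.66), Nop16 (0.62) and Ddx21 (0.60). Of these 18 genes 10 belong to the large subunit group.

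In CD103neg ICOSpos cells the genes that were lower after activation were Utp20 (-1.19, SE 0.24), Mettl1 (-1.18, SE 0.18), Rrp12 (-0.99, SE 0.15), Nop16 (-0.86), Rrp1b (-0.78) and Nhp2 (-0.77), with adjusted p between 0.00652 and 0.0487 in limma. Rrp1b, Nhp2, Nop16, Rrp12 and Mettl1 are among the genes that were higher after activation in CD103pos ICOSneg cells. In 41 of the 43 genes both activated arrays of CD103neg ICOSpos lay below both fresh ones (21.8% of all genes). Without the array set apart 2 of the 43 genes passed, with the single remaining array taken to vary like the other groups. This count was 0 without fresh CD103neg ICOSpos replicate 1 and 1 without its replicate 2. It was 2 without the partner of the array set apart or either fresh CD103pos ICOSpos array, and 3 without either fresh CD103neg ICOSneg or either activated CD103pos ICOSneg array.

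Other counts rested on single arrays as well. That of CD103pos ICOSneg was 6 without fresh CD103pos ICOSneg replicate 1, 8 without activated replicate 1 and 10 without activated replicate 2 of that subset. That of CD103neg ICOSneg was 2 without its activated replicate 1 and 4 without either of its fresh arrays. That of CD103pos ICOSpos was 0 without its activated replicate 1 or its fresh replicate 2, and 1 without its fresh replicate 1.

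**Figure D4:**
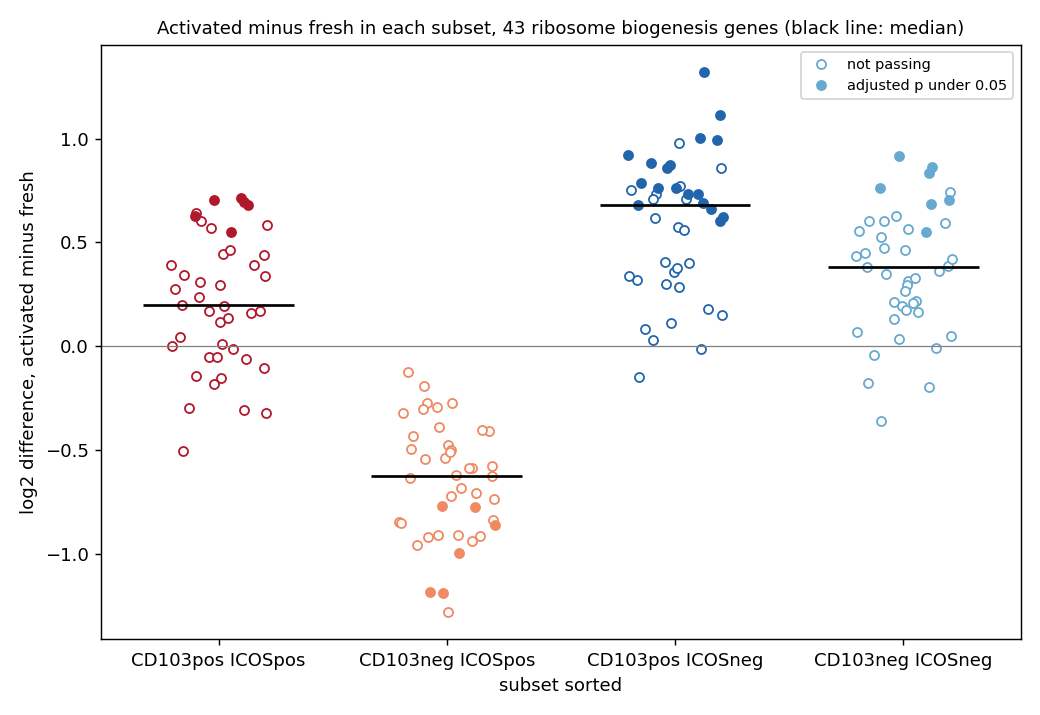
Activated minus fresh log2 difference of the 43 genes in each subset, 1 point per gene, filled where the gene passed, with the median as a black line. The medians are 0.20, -0.62, 0.68 and 0.38 from left to right, and in CD103neg ICOSpos cells every point lies below 0.

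Averaged over the 4 subsets, activated cells had 10 genes higher and 1 lower, with a median of 0.16. Of all genes 14.4% were called higher and 16.8% lower. For higher genes the members' share lies not far above that background, and for lower ones it lies below it. At an unadjusted p under 0.05 in limma 14 members were higher and 4 lower. In either direction it was 7742 of all 19938 genes, not far below the members' share. The median of the members was 0.39 in the replicate 1 arrays and -0.03 in the replicate 2 arrays. The largest rises were those of Mrto4 (0.54, SE 0.10, adjusted p = 0.00129 in limma), Noc4l (0.49, SE 0.08, adjusted p = 0.000439) and Nolc1 (0.49, SE 0.09, adjusted p = 0.00157), followed by Nhp2 (0.43), Npm1 and Ebna1bp2 (0.42 each), Bysl (0.41), Nop56 (0.35), Pes1 (0.32) and Bop1 (0.26). Heatr1 fell by 0.36 on the log2 scale (SE 0.11, adjusted p = 0.0258 in limma), and its difference was -0.62 for replicate 2 and -0.11 for replicate 1. RNA polymerase I genes did not pass, with differences between -0.21 for Polr1a and 0.17 for Polr1c. The count was 10 without the array set apart, and 7 without its partner.

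The 2 probe sets of Wdr12 disagreed on activation, with 0.31 in the brighter one used here and -0.17 in the other. Both had negative ICOS differences in activated cells (-0.57 and -0.68). The first did not pass, and the other was not tested by itself. On activation the probe sets of Mrto4 (0.54 and 0.49) and Fbl (-0.14 and -0.18) agreed in sign. Over the same comparison all 11 cell cycle genes were higher in activated cells, with a median of 3.16. By subset their median was 1.91 in CD103pos ICOSpos, 1.31 in CD103neg ICOSpos, 4.54 in CD103pos ICOSneg and 4.57 in CD103neg ICOSneg cells. It was thus smaller in the ICOSpos subsets. The members' medians in the same order were 0.20, -0.62, 0.68 and 0.38. In CD103neg ICOSpos cells all 43 members had negative differences, while 10 of the 11 cell cycle genes had positive ones (8 passing in limma). Lower on average in activated cells were 4 of 10 Treg, 3 of 4 B cell, 3 of 8 myeloid and dendritic, 2 of 5 CD8 and NK, 2 of 8 activated conventional CD4, 1 of 4 naive CD4 and 1 of 3 T cell markers, and higher were 2 Treg, 3 activated conventional CD4 and 1 naive CD4 marker. Their part in the members' differences was not tested.

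In fresh cells the genes were on balance lower in CD103pos cells. CD103pos minus CD103neg, averaged over ICOS, was negative in 42 of 43 genes, with a median of -0.38, and 2 genes passed (23 at an unadjusted p under 0.05 in limma), where 0.0652% of all genes were called lower. These were Mettl1 (-0.79, SE 0.13, adjusted p = 0.0467 in limma) and Rrp12 (-0.61, SE 0.10, adjusted p = 0.0477 in limma). Both calls lie close to the threshold. Neither was made without any 1 of the 8 fresh arrays or either activated CD103pos ICOSneg array, and 1 gene passed without either activated CD103pos ICOSpos array. Bop1, Mettl1, Mrto4, Noc4l, Rrp9 and Wdr74 had all 4 fresh CD103pos arrays below all 4 fresh CD103neg arrays (1.29% of all genes). At an unadjusted p under 0.05 in limma, 1494 of all 19938 genes were counted in either direction. Marker lists also leaned one way in this comparison. Of the cell cycle genes 10 of 11 were negative (median -0.37, 5 at an unadjusted p under 0.05 in limma and none passing). So were 7 of 8 markers of activated conventional CD4 T cells (median -0.40, none passing and 3 unadjusted). Of the naive CD4 T cell markers 3 of 4 were negative (1 passing). All 10 of 10 Treg markers were positive (median 0.33, none passing and 1 unadjusted), and 1 of 5 CD8 and NK markers passed higher. Positive as well were 3 of 4 B cell markers (median 0.41, none passing and 2 unadjusted). Of 8 myeloid and dendritic markers 5 were positive, with none passing and 1 unadjusted. The part of these marker lists in the difference was not tested.

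The CD103 difference among fresh cells lay mainly between the ICOSpos subsets. CD103pos ICOSpos minus CD103neg ICOSpos had a median of -0.66 and was negative in 42 genes, while CD103pos ICOSneg minus CD103neg ICOSneg had a median of -0.11 and was negative in 38. ICOSpos minus ICOSneg had a median of -0.32 between the CD103pos subsets and of 0.26 between the CD103neg subsets, so its average over CD103 was near 0 (median -0.02). No gene passed for ICOS in fresh cells in limma (1 higher and 0 lower at an unadjusted p under 0.05), where 6.53% of all genes were called in either direction. The interaction of CD103 with ICOS in fresh cells had a median of -0.53, and no gene passed in limma either (12 lower and 0 higher at an unadjusted p under 0.05), where 0.0451% of all genes were called. Over all 19938 genes an unadjusted limma p under 0.05 in either direction was found for 3686 by ICOS and for 989 in the interaction. The 11 cell cycle genes were all higher in fresh ICOSpos than in fresh ICOSneg cells, with a median of 2.97. Their array medians were -0.60 to 0.32 in ICOSpos and -3.13 to -2.77 in ICOSneg cells. By ICOS 1 of 10 Treg, 3 of 4 naive CD4 and 1 of 5 CD8 and NK markers passed lower. Higher were 2 of 8 activated conventional CD4 markers and 1 CD8 and NK marker. In the interaction all 11 cell cycle genes were negative (median -0.81, none passing and 9 at an unadjusted p under 0.05 in limma), and 1 CD8 and NK marker passed lower. The part of these markers in the members' differences was not tested.

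**Figure D5:**
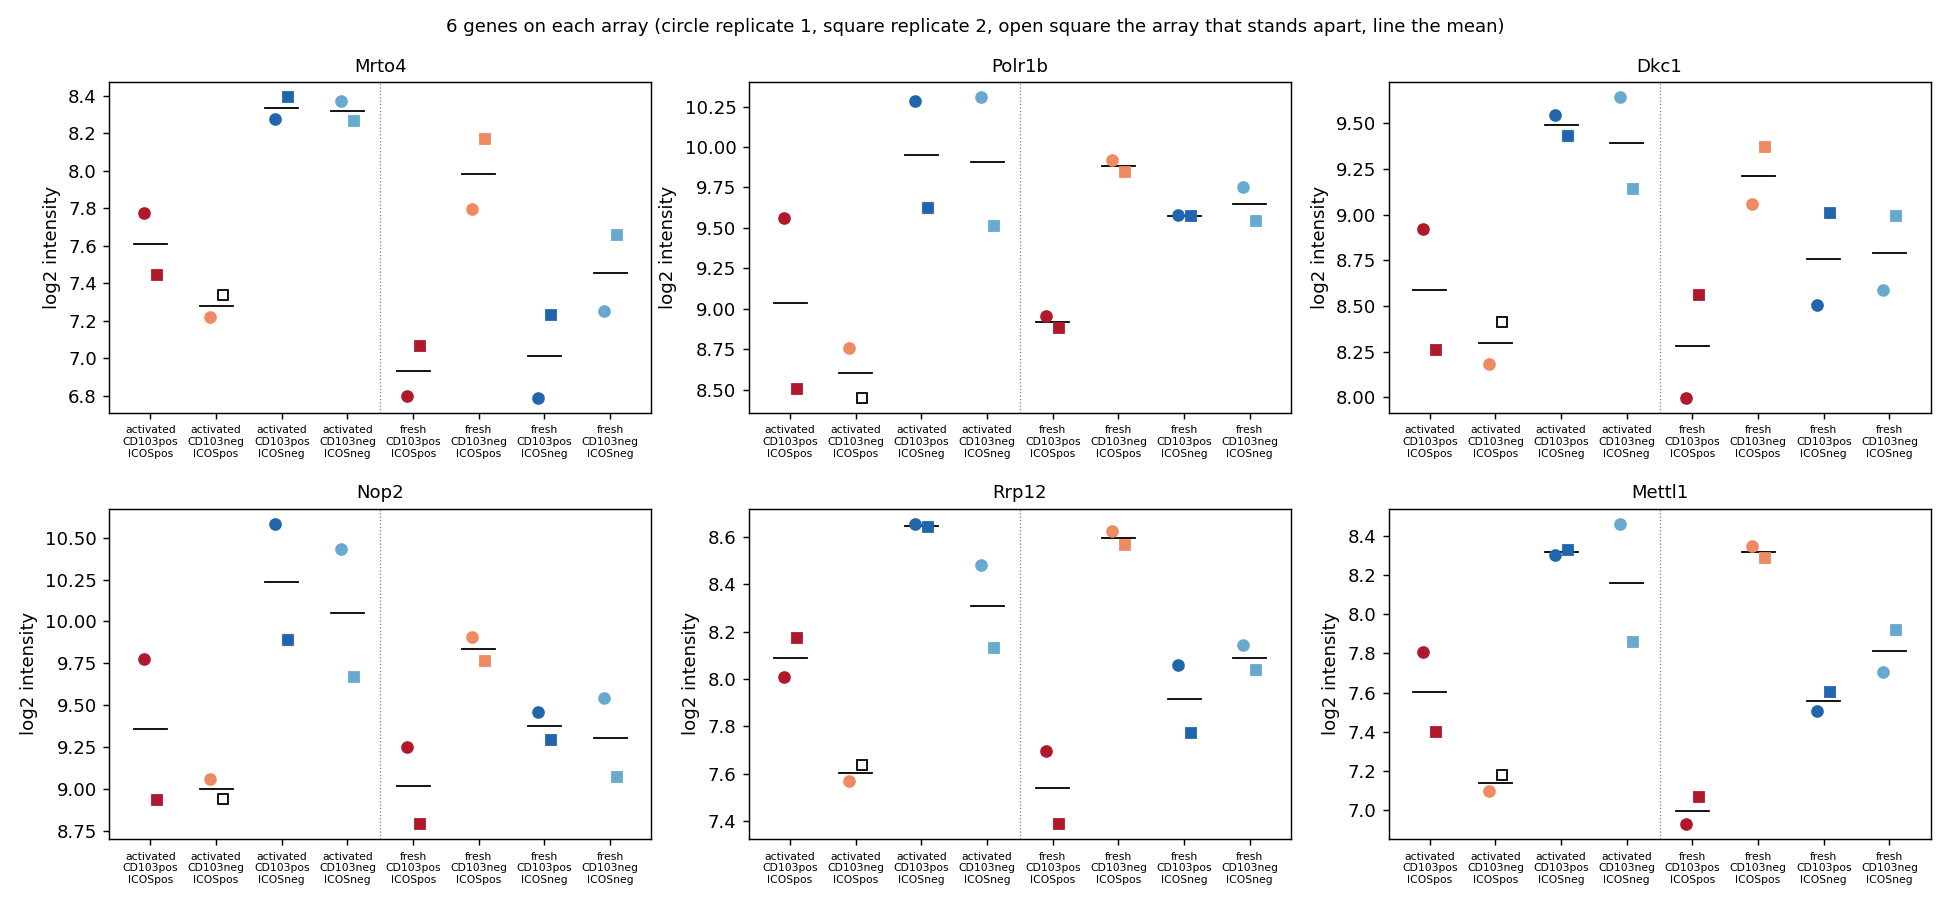
Log2 intensity of Mrto4, Polr1b, Dkc1, Nop2, Rrp12 and Mettl1 on each of the 16 arrays, with the activated groups left of the fresh ones; circles are replicate 1, squares replicate 2, the open square the array set apart and lines the group means. In each gene the activated CD103neg ICOSpos mean is the lowest of the activated groups and the fresh CD103neg ICOSpos mean is the highest of the fresh groups.

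By CD103 in activated cells the median of CD103pos minus CD103neg was 0.15, with 39 of 43 genes positive (42 in the replicate 1 and 31 in the replicate 2 arrays), against 0.03 over all genes, and no gene passed in limma (3 higher and 0 lower at an unadjusted p under 0.05), where 0.717% of all genes were called in either direction. With 2 arrays per group this leaves smaller differences undecided. Over all 19938 genes 2414 had an unadjusted p under 0.05 in limma in either direction. The activated CD103neg side holds the array set apart and its partner. On that partner Itgae lay above both activated CD103pos ICOSneg arrays, so the labels and the Itgae levels do not match here.

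The ICOS and CD103 differences were then compared between the states. The ICOS difference was lower in activated than in fresh cells for 12 of the 43 genes (35 at an unadjusted p under 0.05 in limma), with a median of -0.68, where 4.65% of all genes were called lower. Mrto4 had an ICOS difference of -0.88 in activated and 0.22 in fresh cells, and the difference between them was -1.11 (SE 0.20, adjusted p = 0.00742 in limma). Rrp1b followed with -1.10 (SE 0.17, adjusted p = 0.0032 in limma), and Bysl, Nhp2, Nolc1, Mettl1, Ddx21, Nip7, Pes1, Bop1, Rrp12 and Noc4l passed with values between -0.999 and -0.66. Ddx21 is among them although its ICOS difference did not pass in either state. An unadjusted limma p under 0.05 in either direction was found here for 4118 of all 19938 genes. In the same comparison all 11 cell cycle genes passed lower, with a median of -3.25, and their part in the members' difference was not tested. The count of members was 10 without the array set apart, 7 without fresh CD103pos ICOSpos replicate 2 and 21 without activated CD103pos ICOSpos replicate 1.

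The CD103 difference was higher in activated than in fresh cells for Rrp12 (1.03, SE 0.15, adjusted p = 0.0246 in limma) and Mettl1 (1.10, SE 0.18, adjusted p = 0.0415 in limma), and positive for all 43 genes, with a median of 0.53 (23 at an unadjusted p under 0.05). Of all genes 0.105% were called higher in this comparison, and 2111 of 19938 had an unadjusted p under 0.05 in limma in either direction. Of the 11 cell cycle genes 10 had positive differences here (median 0.40), and none passed in limma (5 at an unadjusted p under 0.05). Of the 5 CD8 and NK markers 1 passed lower. Their part in the difference was not tested. The activated CD103neg side holds the array set apart and its partner. On that partner Itgae lay above both activated CD103pos ICOSneg arrays. Without the array set apart 1 gene passed. Neither passed without either fresh CD103neg ICOSneg array, either fresh CD103neg ICOSpos array, either activated CD103pos ICOSneg array, or replicate 2 of fresh CD103pos ICOSneg, fresh CD103pos ICOSpos or activated CD103pos ICOSpos. Leaving out replicate 1 of any of these last 3 groups left 1 call.

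A longer list of further ribosome biogenesis genes, 83 of 85 measured, was read for the same comparisons. By ICOS in activated cells 26 of them were lower and none higher in limma (60 and 0 at an unadjusted p under 0.05), with a median of -0.52. There 5% of all genes were called lower, and 3923 of 19938 had an unadjusted p under 0.05 in limma in either direction. The largest falls were Ruvbl1, an ATPase that helps to assemble box C/D particles (-0.89), Sdad1 (-0.83), Shq1, a chaperone of dyskerin (-0.76), and Utp6 (-0.75). In CD103pos ICOSneg cells 15 were higher and 1 lower after activation (median 0.37), where 10.2% of all genes were called higher and 10% lower. In CD103neg ICOSpos cells 5 were lower (median -0.39), where 1.06% of all genes were called lower. Averaged over the subsets 15 were higher and 6 lower in activated cells, which for higher genes is close to the 14.4% of all genes called and for lower genes below the 16.8%. Lyar (0.88), Polr1d (0.85), Ruvbl2 (0.73) and Pno1 (0.71) rose most, and the large ATPase Mdn1 (-1.46), Urb1 (-0.38), the acetyltransferase Nat10 (-0.38) and Sbds (-0.28) fell most.

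The proteins of the ribosome itself were read beside the assembly factors. Of 79 listed genes of cytosolic ribosomal proteins 55 had a probe set of their own. By ICOS in activated cells 1 of them, Rpl12, was lower (-0.88), with a list median of -0.07, where 5% of all genes were called lower. Averaged over the subsets activated cells had 1 gene higher, Rpl34 (0.27), where 14.4% of all genes were called higher. Lower were 10 genes, a share close to the 16.8% of all genes called lower, and the list median was -0.08. Among the lower genes were Rpl12 (-0.53), Rps15a (-0.47), Rps7 (-0.47) and Rpl30 (-0.44). Many genes of this kind have close copies in the genome that the probes may not separate.

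Myc had log2 levels of 11.31 and 10.75 on the activated CD103pos ICOSpos arrays, 10.80 and, on the array set apart, 10.84 on the CD103neg ICOSpos arrays, 11.93 and 11.55 on the CD103pos ICOSneg arrays and 11.54 and 11.60 on the CD103neg ICOSneg arrays. In fresh cells it had 9.97 and 9.76 in CD103pos ICOSpos, 10.96 and 10.85 in CD103neg ICOSpos, 11.26 and 11.07 in CD103pos ICOSneg and 11.21 and 11.10 in CD103neg ICOSneg cells. The ICOSpos arrays lay below the ICOSneg arrays in both states. The difference was -0.73 in activated cells (SE 0.13, adjusted p = 0.00881 in limma) and -0.77 in fresh cells (SE 0.13, adjusted p = 0.00371 in limma). The biogenesis genes were lower by ICOS in activated cells. In fresh cells their median ICOS difference was -0.32 between the CD103pos subsets and 0.26 between the CD103neg subsets, and near 0 averaged over CD103. The part of Myc in these differences was not tested. After activation Myc was higher by 1.17 in CD103pos ICOSpos (adjusted p = 0.00174 in limma) and by 0.58 in CD103pos ICOSneg cells (adjusted p = 0.0405 in limma), and differed by 0.41 in CD103neg ICOSneg and by -0.09 in CD103neg ICOSpos cells without passing.

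Of the 18 measured genes of the Myc network and of the growth kinase complex mTORC1, 7 were higher and 5 lower in activated cells averaged over the subsets. There 14.4% of all genes were called higher and 16.8% lower. The largest rises were Mxd1 (1.15), Eif4ebp1 (1.13), Mxd3 (1.11) and Mxi1 (0.77), and the largest falls Mxd4 (-1.57), Tsc1 (-0.60), Rptor (-0.58) and Maf1 (-0.55). The Mxd proteins and Mxi1 compete with Myc for its partner Max, Eif4ebp1 holds back translation until mTORC1 phosphorylates it, Tsc1 restrains mTORC1 and Maf1 represses RNA polymerase III, so most of these are negative regulators. By ICOS in activated cells Mxd4 was higher (0.56), and the amino acid transporter Slc7a5 (-1.02) and Myc were lower. There 1.94% of all genes were called higher and 5% lower.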

How the data were processed

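RNA of each sample was hybridised to 1 expression array, from 270 ng of total RNA per the labels' protocols. The values analysed are log2 intensities deposited by the authors, 1 per probe set and array. RMA in affy is the method named in the submitters' processing notes, without a version, and no source used here gives the settings. This method is known to correct background, to normalize probes between arrays by quantiles and to summarise them per probe set, so a shift shared by most genes of an array cannot be seen.

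Of 35556 probe sets 21789 carry 1 gene symbol in the platform annotation and 1621 several. For the 999 genes with several probe sets the one with the highest mean was used, which gave 19938 genes, and no dim gene was removed. limma 3.58.1 in R 4.3.3 modelled the 8 group means over all 16 arrays together, which left 8 residual and 2.90 prior degrees of freedom. There were 12 comparisons, and adjusted p-values are Benjamini-Hochberg over the 19938 genes of each, with a threshold of 0.05. The step was tested on simulated data with independent noise for each gene and array. These hold no array that stands apart and no correlation between same-numbered arrays, so that test does not speak to either.

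The 45 genes and the other lists (further ribosome biogenesis, ribosomal proteins, Myc and mTORC1, markers of cell types and the cell cycle) were chosen with earlier results of these data known. Genes are named in full where they are the 3 largest passing differences in a direction, or the largest and the smallest activation difference of a role group, and otherwise by their difference. Probes of genes with close copies elsewhere in the genome may read both.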

Additional observations from a re-analysis of the deposited data

Results flagged for a closer look

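The ICOS difference (ICOSpos minus ICOSneg, averaged over CD103) was tested between the states, activated minus fresh, as an interaction term in limma over all 16 arrays, and 12 of the 43 genes were picked out because this difference itself passed. The differences of the ICOS differences were -1.11 for Mrto4, -1.10 for Rrp1b, -0.999 for Bysl, -0.93 for Nhp2, -0.86 for Nolc1, -0.84 for Mettl1, -0.83 for Ddx21, -0.75 for Nip7, -0.74 for Pes1, -0.70 for Bop1, -0.70 for Rrp12 and -0.66 for Noc4l. Adjusted p ran from 0.0032 for Rrp1b to 0.0496 for Pes1. In the same comparison all 11 cell cycle genes passed lower (median -3.25). All 43 members were negative within replicate 1 as well as within replicate 2, so this sign does not set the 12 apart.

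By the same kind of test the CD103 difference (CD103pos minus CD103neg, averaged over ICOS) differed between the states for Mettl1, by 1.10 (adjusted p = 0.0415 in limma), and for Rrp12, by 1.03 (adjusted p = 0.0246 in limma).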

How the results depend on the processing

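The direction of no passing gene was reversed under any alternative run. For single genes, 1597 gene and setting combinations kept their side of the threshold, 346 no longer passed and 4 came to pass. Medians over the 43 genes changed sign under some setting only for activation in CD103pos ICOSpos cells (-0.02 to 0.47) and for ICOS in fresh cells (-0.09 to 0.08). With a second quantile normalization 18 genes passed for activation averaged over the subsets (17 higher and 1 lower) and 11 in CD103pos ICOSpos cells. With dim genes left out no gene passed for CD103 in fresh cells. With a trended and robust prior in limma 3 passed for activation in CD103neg ICOSpos cells and 1 for CD103 in fresh cells. A fit to only the groups compared, which has fewer arrays, gave 14 for ICOS in activated cells and 4 for CD103 in fresh cells, and for activation 1 in CD103neg ICOSneg, 0 in CD103neg ICOSpos and 1 in CD103pos ICOSpos cells. Averaging a gene's probe sets moved no count by more than 1.5 times. The counts of members in this section, the replicate block below included, are not set beside the share of all genes called under the same setting. They therefore do not separate a change particular to the members from a general one.

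The replicate numbers are the same in all groups, but the labels do not say that a number marks an experiment, so the design does not pair the arrays. The data give a hint that it may. The deviations of same-numbered arrays from their group means correlated over genes at -0.016 to 0.752 over the 28 pairs of groups, above 0.1 in 27, and at 0.499 to 0.752 over the 6 pairs of fresh groups. With the number as a replicate block, 14 genes passed for activation in CD103neg ICOSneg and 21 in CD103neg ICOSpos cells, 6 for CD103 in fresh cells, 1 for CD103 in activated cells, 25 for ICOS between the states and 8 for CD103 between the states, and 38 for ICOS in activated cells.

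With each of the 16 arrays left out in turn, the number passing lay between 7 and 14 for activation averaged over the subsets, 2 and 9 in CD103neg ICOSneg, 6 and 20 in CD103pos ICOSneg, 0 and 9 in CD103neg ICOSpos and 0 and 7 in CD103pos ICOSpos cells. It lay between 13 and 32 for ICOS in activated cells, 0 and 3 for CD103 in fresh cells, 7 and 21 for ICOS between the states and 0 and 3 for CD103 between the states. It stayed at 0 for ICOS in fresh cells, for CD103 by ICOS in fresh cells and for CD103 in activated cells. Where a group was left with 1 array, that array was taken to vary like the other groups. The cause of these changes was not tested. With 2 arrays per group, differences under the spread of replicates cannot be seen.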
